A study of Mus musculus with 8 samples.

Results

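Collagens are secreted proteins whose chains wind around each other into helices, and each chain has its own gene. The genes examined here were those with a symbol made of Col, a type number, the letter a and a chain number. They were found through the RefSeq accession that each array probe carries. The RefSeq table holds 44 such symbols, and 42 of them had a probe, out of 20145 symbols named on the array. The 42 chains had 61 probes. Col12a1 and Col6a3 were not analysed here. The chains comprised 11 fibrillar, 6 basement membrane, 2 multiplexin, 1 anchoring fibril, 8 FACIT (fibril-associated), 5 beaded filament, 3 network and 4 transmembrane members and 2 others.

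RNA of ovarian neoplasia was measured on 5 arrays and RNA of wildtype ovary on 3 arrays, all from cycling mice aged 33 weeks whose ovaries were flash frozen. The neoplasia mice carried the Pgrcre/+ allele, which makes Cre recombinase wherever the progesterone receptor gene Pgr is active, together with an LsL allele of the same receptor. That second allele is written mPgrLsL/+ on the samples and PgrBLsL/+ in the design, and an LsL cassette holds back expression until Cre removes it. The wildtype mice carried neither allele. Each sample was a whole neoplasia or a whole ovary, so fewer cells of a type and less RNA per cell cannot be told apart. Nothing in the labels says that each array came from its own animal, so a p-value here reflects only variation among these samples, which may be technical. All arrays lay on 1 slide. Slide row 1 held neoplasia 1 to 4 and slide row 2 held neoplasia 5 with the 3 wildtype arrays, so for neoplasia 1 to 4 row and group cannot be told apart. A value within slide row 2, or with slide row as a block, therefore sets 1 neoplasia against the 3 wildtype arrays.

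Fibrillar collagens such as types I, III and V give connective tissue its tensile strength and are made mostly by fibroblast-like cells. Type IV collagen forms the sheet of basement membranes, which in the ovary surround follicles, blood vessels and the surface epithelium. Type VI builds beaded filaments next to cells, type VII anchors basement membranes to the tissue beneath, and FACIT chains sit on the surface of fibrils. Before export, a chain is hydroxylated on proline and lysine, folded with the help of chaperones, then trimmed and cross-linked outside the cell.

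Levels are log2 of the background-subtracted signal minus the log2 of the 75th percentile of signal on the same array, so a level of 0 lies at that percentile. Differences are neoplasia minus wildtype on this scale, with the standard error of the limma fit. A chain was tested if its probe was well above background on at least 3 arrays, and 36 of the 42 chains were. The other 6 were Col2a1, Col9a3, Col13a1, Col17a1, Col19a1 and Col28a1. A chain was called higher or lower where the limma adjusted p, taken over all 25216 tested features, was under 0.05. The 75th percentile of signal was 309.1 to 428.6 on the neoplasia arrays and 462.0 to 515.1 on the wildtype arrays. Markers of oocytes were lower for 8 of 8 genes in the neoplasias and markers of granulosa cells for 6 of 8, against 13.5% of all features. Of these, Zp1, Zp2, Bmp15, Padi6, Fshr, Amh and Cyp19a1 were above background on no neoplasia array. They met the filter of 3 arrays through the wildtype arrays alone, so their direction was set by the filter. Foxl2, the defining transcription factor of granulosa cells, did not pass (0.43 ± 0.19, SE, limma adjusted p = 0.118).

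Of the 36 tested chains, 4 were higher in the neoplasias and 6 were lower, and 26 did not pass. Over all features 16.8% were higher and 13.5% were lower, 30.3% in all, and the chains' total of 10 is close to that share. With arrays scaled on spike-in controls instead, 0 chains were higher and 13 lower, against 2.93% and 15.9% of all features. The mean log2 signal of these controls was 8.89 on neoplasia 1 and 10.18 to 10.76 on neoplasia 2 to 5, against 10.04 to 10.14 on the wildtype arrays. The 4 higher chains were Col4a1 and Col4a2 of the basement membrane class, the multiplexin Col18a1 and the anchoring fibril chain Col7a1. The 6 lower chains were spread over 5 classes: Col27a1, Col4a6, Col9a2, Col6a4, Col6a5 and Col26a1. The median difference was -0.87 over the chains and 0.13 over all features, with 14 chains above 0 and 22 below. Neoplasia and wildtype arrays did not overlap for 10 chains, 5 higher and 5 lower, against 39.0% of all features (23.0% higher, 16.1% lower).

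**Figure D1:**
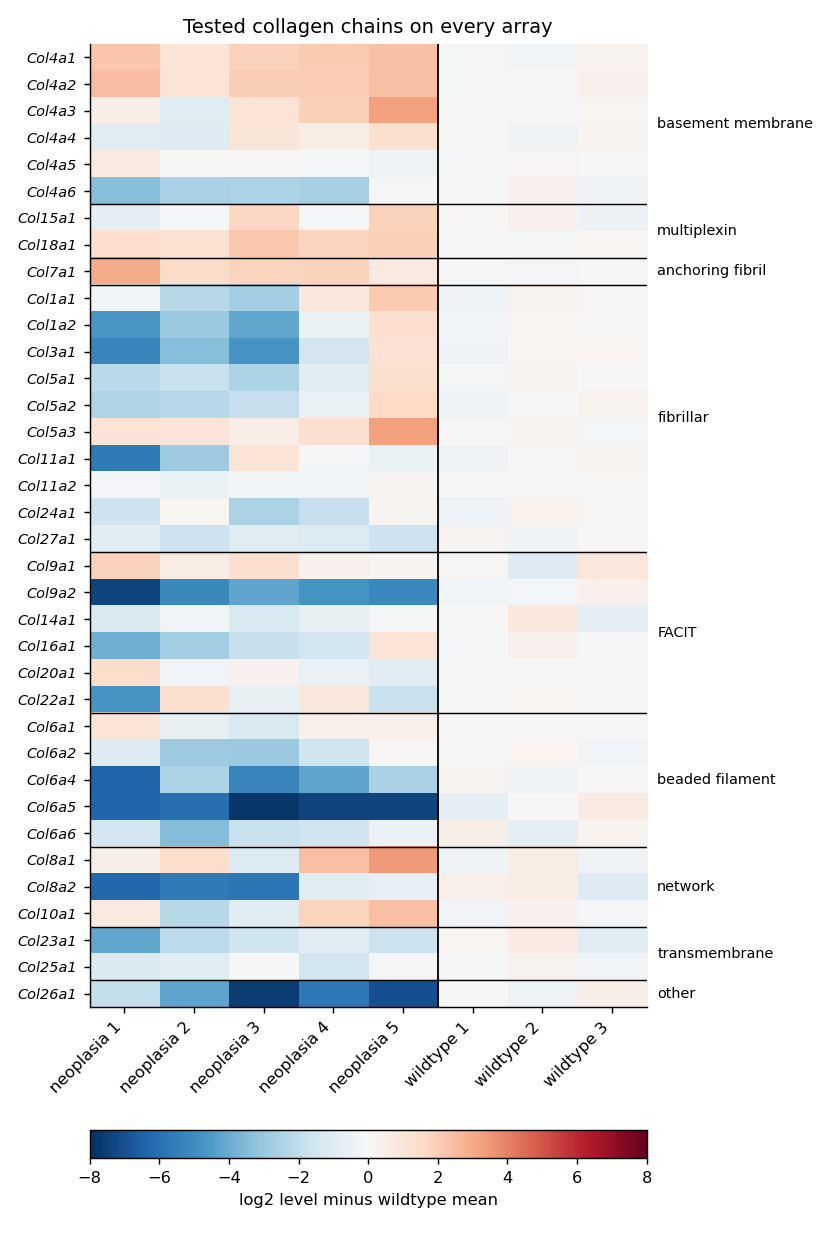
Level of the 36 tested chains on each of the 5 neoplasia and 3 wildtype arrays, as log2 level minus the wildtype mean of that chain (red above, blue below, colour scale from log2 -8 to 8), grouped by class. Col4a1, Col4a2 and Col18a1 are above every wildtype array in all 5 neoplasias, Col9a2, Col6a4, Col6a5 and Col26a1 are below, and the fibrillar chains differ among the neoplasias.

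The neoplasias differed from each other in their chains more than in most features. The median SD over the neoplasia arrays was 1.20 for the tested chains and 0.47 for all features, while over the wildtype arrays it was 0.26 for the chains and 0.20 for all features. Relative to the wildtype mean, the median difference over the chains was -1.10 in neoplasia 1, -1.34 in neoplasia 2, -1.17 in neoplasia 3, -0.53 in neoplasia 4 and 0.22 in neoplasia 5. Neoplasia 5 was the highest neoplasia for 20 of the 36 chains, against 21.6% of all features.

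Among the 6 basement membrane chains, Col4a1 and Col4a2 were higher in the neoplasias, Col4a6 was lower, and Col4a3, Col4a4 and Col4a5 did not pass. Over all features 16.8% were higher and 13.5% lower. Col4a1 and Col4a2 encode the chains of the type IV network found in basement membranes throughout the body. Their genes lie head to head on chromosome 8, so that each promoter reaches into the other. Of the 42 chains and the 2 without a probe, 35 have a promoter window (250 bases before to 50 after the annotated start) in the RefSeq table of GRCm38.p6. The windows of Col4a1 (chr8:11312777-11313076, minus strand) and Col4a2 (chr8:11312555-11312854, plus strand) share 78 bases, printed in capitals below on the strand of each gene, and the annotated starts lie 21 bases apart. They are shown because both genes were higher by nearly the same amount.
Col4a1: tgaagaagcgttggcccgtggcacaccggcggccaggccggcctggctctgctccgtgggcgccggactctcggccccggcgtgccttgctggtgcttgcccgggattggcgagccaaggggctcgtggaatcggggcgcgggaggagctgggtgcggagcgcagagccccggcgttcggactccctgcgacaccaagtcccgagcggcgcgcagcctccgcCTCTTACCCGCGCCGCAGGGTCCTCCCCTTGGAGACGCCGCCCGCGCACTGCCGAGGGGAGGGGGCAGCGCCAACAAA
Col4a2: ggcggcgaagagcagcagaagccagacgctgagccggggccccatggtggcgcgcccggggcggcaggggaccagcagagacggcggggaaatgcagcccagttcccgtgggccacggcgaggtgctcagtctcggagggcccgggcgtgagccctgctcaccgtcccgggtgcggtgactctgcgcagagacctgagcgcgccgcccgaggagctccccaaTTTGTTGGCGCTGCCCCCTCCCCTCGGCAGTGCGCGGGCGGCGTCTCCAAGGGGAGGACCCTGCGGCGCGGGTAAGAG
The GC box letters GGGCGG, searched on both strands, occurred at 1 place in the Col4a1 window and 3 in the Col4a2 window, and in 35.7% of all 32851 windows. The letters CCAAT occurred at 1 place in each, and in 37.4% of all windows. The letters TATAAA were in neither and in 13.6% of all windows. Of the GGGCGG matches, 1 in each window is the same site within the shared bases, and no match overlapped another. A match is only a description of the sequence.

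Col4a1 had levels of 5.77, 4.64, 5.43, 5.67 and 5.92 in neoplasia 1 to 5, against 3.46, 3.38 and 3.89 in wildtype 1 to 3. Every neoplasia lay above every wildtype array, and neoplasia 2 was the lowest of the neoplasias. The difference was 1.91 ± 0.31 (SE), 3.76-fold higher in the neoplasias (limma adjusted p = 0.0043). Col4a2 had levels of 6.0, 4.63, 5.49, 5.57 and 5.87 in neoplasia 1 to 5, against 3.40, 3.37 and 3.86 in wildtype 1 to 3. Neoplasia 2 was again the lowest of the neoplasias, and wildtype 3 was the highest of the wildtype arrays. The difference was 1.97 ± 0.33 (SE), 3.92-fold higher (limma adjusted p = 0.00447). The gap between the 2 chains within an array averaged -0.03 ± 0.13 (SD, n = 5) in the neoplasias and 0.03 ± 0.02 (SD, n = 3) in wildtype ovary (exact permutation p = 0.571 over 56 splits, adjusted p = 0.635 over 10 pairs). Within slide row 2, neoplasia 5 exceeded the wildtype mean by 2.35 for Col4a1 and 2.33 for Col4a2. Both calls were lost when arrays were scaled on spike-in controls, with differences of 1.32 (limma adjusted p = 0.113) and 1.38 (limma adjusted p = 0.108).

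Col4a5 and Col4a6 form a second head-to-head pair, on the X chromosome, and their products join in a type IV network known from smooth muscle and some epithelia. Their windows (Col4a5 chrX:141475169-141475468, plus strand; Col4a6 chrX:141474027-141474326, minus strand) do not overlap, and the annotated starts lie 1343 bases apart. They are shown beside the first pair, with capitals at the 1 place in each where GGGCGG occurs on either strand.
Col4a5: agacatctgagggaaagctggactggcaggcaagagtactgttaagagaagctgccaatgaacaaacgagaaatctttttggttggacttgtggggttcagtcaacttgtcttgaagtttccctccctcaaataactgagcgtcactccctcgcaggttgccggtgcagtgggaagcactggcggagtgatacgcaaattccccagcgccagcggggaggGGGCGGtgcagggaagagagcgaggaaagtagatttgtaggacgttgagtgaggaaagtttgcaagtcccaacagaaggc
Col4a6: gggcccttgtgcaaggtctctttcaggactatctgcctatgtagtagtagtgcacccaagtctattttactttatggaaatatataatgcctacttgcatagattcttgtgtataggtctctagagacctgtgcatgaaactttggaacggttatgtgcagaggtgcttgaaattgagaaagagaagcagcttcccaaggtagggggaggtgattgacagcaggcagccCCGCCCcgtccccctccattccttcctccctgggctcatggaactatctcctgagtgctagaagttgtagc
CCAAT occurred at 1 place in the Col4a5 window and not in that of Col4a6, and TATAAA in neither. Col4a3 and Col4a4, immediate neighbours on chromosome 1, differed by 1.18 and 0.18, and their windows are not shown. The part of the promoters in any of these differences was not tested.

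The Col4a6 probe had levels of -2.46, -1.65, -1.56, -1.72 and 0.79 in neoplasia 1 to 5, against 0.93, 1.29 and 0.64 in wildtype 1 to 3. Neoplasia 1 to 4 lay below every wildtype array, and neoplasia 5 lay among them. The difference was -2.27 ± 0.65 (SE), 4.84-fold lower in the neoplasias (limma adjusted p = 0.033). This call rested on few arrays: the adjusted p was 0.0546 to 0.111 without any 1 array other than neoplasia 5, and 0.000593 without neoplasia 5, where the difference was -2.80. Within slide row 2 the difference was -0.16 (limma adjusted p = 0.732). A second probe of Col4a6 differed by -0.20 ± 0.29 (SE, limma adjusted p = 0.626), so the 2 probes disagree. Col4a5 differed by 0.05 ± 0.26 (SE, limma adjusted p = 0.904). The gap Col4a5 minus Col4a6 was 2.65 ± 1.59 (SD, n = 5) in the neoplasias and 0.32 ± 0.29 (SD, n = 3) in wildtype ovary (exact permutation p = 0.125, adjusted p = 0.179). Col4a3 and Col4a4, the partners of Col4a5 in the kidney glomerulus, differed by 1.18 ± 0.81 (SE, limma adjusted p = 0.289) and 0.18 ± 0.59 (SE, limma adjusted p = 0.833).

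Col18a1, a heparan sulfate collagen of basement membranes whose end fragment is endostatin, was higher in the neoplasias. Its levels were 4.21, 4.09, 4.99, 4.61 and 4.75 in neoplasia 1 to 5, against 2.80, 2.77 and 2.99 in wildtype 1 to 3, with no overlap. The difference was 1.68 ± 0.25 (SE), 3.20-fold higher (limma adjusted p = 0.00268), and its second probe differed by 1.98 ± 0.27 (SE, limma adjusted p = 0.00201). The Col18a1 difference within slide row 2 was 1.90. The other multiplexin, Col15a1, did not pass (0.51 ± 0.63, SE, limma adjusted p = 0.551). Col7a1, the chain of anchoring fibrils under stratified epithelia, had levels of 3.23, 1.81, 2.06, 2.16 and 1.08 in neoplasia 1 to 5, against 0.35, 0.22 and 0.31 in wildtype 1 to 3. Neoplasia 5 was the nearest to the wildtype arrays and still above them. The difference was 1.77 ± 0.42 (SE), 3.42-fold higher (limma adjusted p = 0.0178). The Col7a1 call was lost without any 1 wildtype array (limma adjusted p 0.0553 to 0.067), and within slide row 2 the difference was 0.78 (limma adjusted p = 0.0522). With spike-in scaling neither Col18a1 (1.08, limma adjusted p = 0.149) nor Col7a1 (1.18, limma adjusted p = 0.262) passed.

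Markers of other cell types were read beside these 4 chains. Endothelial markers were higher for 2 of 8 genes and lower for none, against 16.8% higher and 13.5% lower over all features. The 2 were Cdh5 (1.54 ± 0.37, SE, limma adjusted p = 0.0181) and Vwf (1.21 ± 0.37, SE, limma adjusted p = 0.039). The summed level of the 8, on the linear scale where the 75th percentile is 1, was 21.2 to 48.0 in the neoplasias. It was 14.4 to 16.6 in wildtype ovary. Epithelial markers went both ways, with Krt8 (4.0 ± 0.78, SE) and Krt18 (3.52 ± 0.65, SE) higher and Epcam (-3.76 ± 0.96, SE) and Cdh1 (-3.18 ± 1.03, SE) lower among 7 tested. The median difference of the 7 was -0.59, with 4 below 0, and Muc1 was above background on no neoplasia array. Their summed level was 177 to 765 in the neoplasias and 12.5 to 68.4 in wildtype ovary, but without Krt8, Krt18 and Krt19 it was 0.746 to 7.2 in the neoplasias and 1.44 to 5.55 in wildtype ovary. Those keratins were left out after their values were seen. Of 5 decidual markers, Hand2 (10.18 ± 0.89, SE) and Prl8a2 (at least 800-fold) were higher and Dio3 (-3.57 ± 0.82, SE) was lower. The shares over all features were 16.8% higher and 13.5% lower. Bmp2 (-1.58 ± 0.61, SE) and Wnt4 (-1.11 ± 0.59, SE) did not pass, and the median difference of the 5 was -1.11. Prl8a2 was above background on no wildtype array and met the filter through the neoplasia arrays alone, so its direction was set by the filter. The part of any of these cells in the chain levels was not tested.

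**Figure D2:**
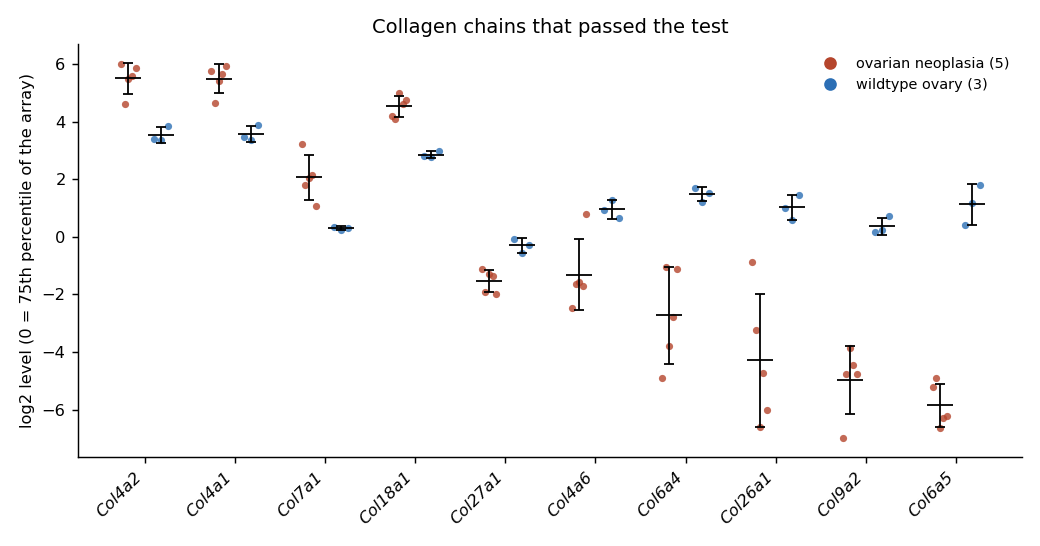
Log2 level (y axis, 0 at the 75th percentile of the array) of the 10 chains that passed the test, ordered by difference. Points are arrays (red, 5 neoplasias; blue, 3 wildtype ovaries), and black marks are means with SD; Col4a6 is the only one of the 10 whose groups overlap, through neoplasia 5 at 0.79.

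Of the 10 tested fibrillar chains, Col27a1 was lower in the neoplasias and the other 9 did not pass. Over all features 13.5% were lower and 16.8% higher. Col1a1 and Col1a2 encode the chains of type I collagen, the main fibril of connective tissue. Col1a1 had levels of 4.26, 2.31, 1.75, 5.32 and 6.58 in neoplasia 1 to 5, against 4.14, 4.80 and 4.57 in wildtype 1 to 3. The neoplasias lay on both sides of the wildtype arrays, with neoplasia 4 and 5 above and neoplasia 2 and 3 below, and the difference was -0.46 ± 1.04 (SE, limma adjusted p = 0.758). Col1a2 had levels of 1.68, 3.38, 2.22, 5.81 and 7.71 in neoplasia 1 to 5, against 6.15, 6.49 and 6.45 in wildtype 1 to 3. Neoplasia 1 to 4 lay below the wildtype arrays and neoplasia 5 above (-2.20 ± 1.29, SE, limma adjusted p = 0.218). Col3a1, the type III chain that shares fibrils with type I, had levels of -0.40, 1.44, 0.15, 3.32 and 6.0 in neoplasia 1 to 5, against 4.55, 4.98 and 4.99 in wildtype 1 to 3. Its pattern was that of Col1a2, and the difference was -2.73 ± 1.33 (SE, limma adjusted p = 0.146).

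The fibrillar calls depended on neoplasia 5 and on the scaling of the arrays. Neoplasia 5 was the highest neoplasia for 8 of the 10 fibrillar chains. Without it, Col1a2 (-3.09, limma adjusted p = 0.0336), Col3a1 (-3.71, limma adjusted p = 0.0133), Col5a1 (-1.84, limma adjusted p = 0.00971) and Col5a2 (-1.76, limma adjusted p = 0.0221) passed as lower, and Col5a3 passed as higher (1.00, limma adjusted p = 0.0155). Without neoplasia 5, slide row and group cannot be told apart, here and wherever that array is left out. Col5a1 and Col5a2 encode the type V chains that help start type I fibrils and limit their width, and Col5a3 a further chain of that type. Within slide row 2, where neoplasia 5 alone faces the wildtype arrays, Col1a1 was 2.07, Col1a2 1.34, Col3a1 1.16, Col5a1 1.30, Col5a2 1.62 and Col5a3 3.30 higher than the wildtype mean. With all arrays kept and spike-in scaling, Col1a2 (-2.80, limma adjusted p = 0.0345) and Col3a1 (-3.33, limma adjusted p = 0.0142) also passed as lower, whereas Col5a1 (limma adjusted p = 0.0661) and Col5a2 (limma adjusted p = 0.0954) did not. Over all chains, the count of lower calls was 14 without neoplasia 5, and 39.6% of all features were then called (22.5% higher, 17.1% lower). Col5a3 had levels of 0.82, 0.72, 0.25, 1.05 and 3.01 in neoplasia 1 to 5, against -0.32, -0.07 and -0.47 in wildtype 1 to 3. It did not overlap between the groups but did not pass with all arrays (1.46 ± 0.57, SE, limma adjusted p = 0.0818).

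Markers of fibroblasts and stroma varied over the same arrays. None of the 8 was higher in the neoplasias and 2 were lower, against 16.8% higher and 13.5% lower over all features. The 2 were Dpt (-4.76 ± 1.48, SE, limma adjusted p = 0.0422) and Tcf21 (-3.37 ± 0.92, SE, limma adjusted p = 0.0284). The summed level of the 8 was 4.44, 12.2, 19.1, 17.9 and 184 in neoplasia 1 to 5, against 167, 189 and 110 in wildtype 1 to 3. Neoplasia 1 to 4 lay below every wildtype array in this sum and neoplasia 5 lay within their range. The same held without Dcn, which was left out after its values were seen, with 4.0, 5.48, 15.4, 8.18 and 46.5 in neoplasia 1 to 5, against 43.9, 54.9 and 40 in wildtype 1 to 3. Single markers departed from the sum: Pdgfra in neoplasia 3 (3.57) lay above every wildtype array (2.53 to 2.71), and Lum and Tcf21 in neoplasia 5 lay below every wildtype array. Of the 8 smooth muscle and pericyte markers, Cnn1 was lower and none was higher, against the same shares of all features. The summed level of these 8 was 20.7, 13.4, 25.1, 66.1 and 208 in neoplasia 1 to 5, against 218, 321 and 112 in wildtype 1 to 3. Rgs5 (1.08 ± 0.42, SE, limma adjusted p = 0.0797) and Cspg4 (0.75 ± 0.37, SE, limma adjusted p = 0.151) had differences above 0 and did not pass. Neoplasia 5 was the highest neoplasia for 6 of the 8 stromal and 7 of the 8 smooth muscle and pericyte markers. The exceptions were Pdgfra, highest in neoplasia 3, Pi16 in neoplasia 4 and Myh11 in neoplasia 1. All 16 markers were above background on at least 1 array of each group. The part of stromal content in the fibrillar levels was not tested.

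**Figure D3:**
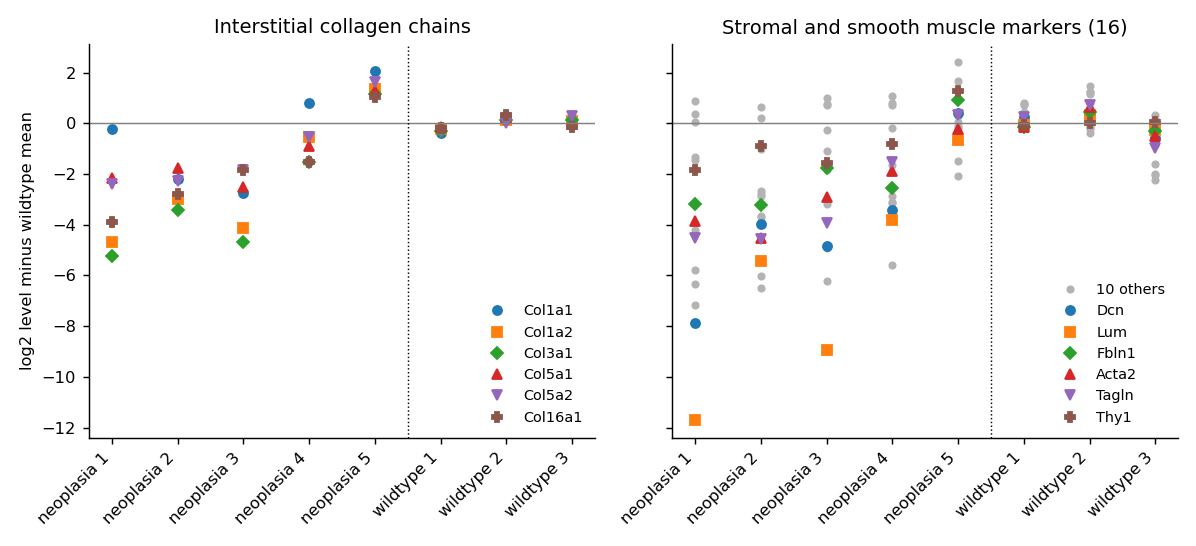
Log2 level minus the wildtype mean (y axis) on each array for 5 fibrillar chains and the FACIT chain Col16a1 (left) and for the 16 stromal and smooth muscle markers (right, 6 of them in colour and the other 10 in grey), with the 5 neoplasias before the 3 wildtype arrays. Neoplasia 5 is the highest of the neoplasias for each coloured gene but not for every grey one, and the markers Dcn and Lum lie furthest below the wildtype mean in neoplasia 1.

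Col27a1, a fibrillar chain known from cartilage, departed from this pattern. It had levels of -1.12, -1.93, -1.28, -1.37 and -1.98 in neoplasia 1 to 5, against -0.06, -0.56 and -0.28 in wildtype 1 to 3. All neoplasias lay below all wildtype arrays, and neoplasia 5 was the lowest. The difference was -1.24 ± 0.27 (SE), 2.36-fold lower (limma adjusted p = 0.0124), and the call was lost without wildtype 1 (-1.12, limma adjusted p = 0.0661). The Col27a1 difference within slide row 2 was -1.69. Among the remaining fibrillar chains, Col11a1 ranged from -6.55 to 0.17 over the neoplasias and averaged -0.89 ± 0.27 (SD, n = 3) in wildtype ovary (-1.62 ± 1.37, SE, limma adjusted p = 0.384). Col11a2 (-0.18 ± 0.20, SE) and Col24a1 (-1.15 ± 0.66, SE) did not pass either.

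Of the 6 tested FACIT chains, Col9a2 was lower and none was higher, against 13.5% lower and 16.8% higher over all features. Col9a2, a chain of type IX collagen on the surface of cartilage fibrils, had levels of -6.98, -4.78, -3.87, -4.44 and -4.77 in neoplasia 1 to 5, against 0.17, 0.24 and 0.71 in wildtype 1 to 3. All neoplasias lay far below all wildtype arrays, and the probe was above background on 3 of the 5 neoplasia arrays. The difference was -5.34 ± 0.63 (SE), 40.5-fold lower (limma adjusted p = 0.000929), and it was -5.14 within slide row 2. Its call held under all 18 alternatives that gave a value, at differences of -5.93 to -2.96. Of 4 tested cartilage markers, Comp (-4.44 ± 0.43, SE) and Cnmd (at least 76.2-fold) were lower, against 13.5% of all features. Cnmd was above background on no neoplasia array and met the filter through the wildtype arrays alone, so its direction was set by the filter. Matn1 and Matn3 were above background on no array. The part of cartilage-like expression in the Col9a2 level was not tested. Col14a1, Col16a1, Col20a1, Col22a1 and Col9a1 did not pass, with differences of -1.80 to 0.89. Col16a1 was lower without neoplasia 5 (-2.51, limma adjusted p = 0.0128).

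Type VI chains split. Col6a1 and Col6a2 make the core of the type VI filament, and Col6a4, Col6a5 and Col6a6 can take the place of the Col6a3 product. Col6a4, Col6a5 and Col6a6 are immediate neighbours on chromosome 9. Col6a5 had levels of -5.21, -4.91, -6.65, -6.30 and -6.21 in neoplasia 1 to 5, against 0.40, 1.18 and 1.80 in wildtype 1 to 3. It was well above background on 0 of 5 neoplasia arrays and 3 of 3 wildtype arrays. It was at least 59.9-fold lower in the neoplasias, a bound set by the lowest signals that count as above background, and limma gave an adjusted p of 5.94e-05. The probe met the filter of 3 arrays through the wildtype arrays alone, so its direction was set by the filter. Neither that adjusted p nor its call under the 17 alternatives that gave a value is therefore separate support. The filter for signal above background on every array gave it no value. Within slide row 2 the difference was -7.34. With normexp background correction the difference was -3.49, less than the 59.9-fold bound, which holds only for the background subtraction used here. A second Col6a5 probe was not tested, being above background on 0 of 5 neoplasia arrays and 1 of 3 wildtype arrays.

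Col6a4 had levels of -4.90, -1.04, -3.80, -2.77 and -1.13 in neoplasia 1 to 5, against 1.70, 1.22 and 1.53 in wildtype 1 to 3. The groups did not overlap, and neoplasia 2 and 5 were nearest to the wildtype arrays. The difference was -4.21 ± 0.86 (SE), 18.5-fold lower (limma adjusted p = 0.0105). A second Col6a4 probe, above background on 0 of 5 neoplasia arrays and 3 of 3 wildtype arrays, differed by -3.29. That probe met the filter through the wildtype arrays alone, so its direction was set by the filter and is not separate support. Within slide row 2 the Col6a4 difference was -2.62 (limma adjusted p = 0.0124), and the call was lost with slide row as a block (limma adjusted p = 0.259). Col6a6 did not pass (-1.76 ± 0.62, SE, limma adjusted p = 0.0616) and was above background on 1 of 5 neoplasia arrays. Col6a1 differed by 0.03 ± 0.49 (SE, limma adjusted p = 0.97), with levels of 4.2 to 6.54 in the neoplasias and 5.42 to 5.44 in wildtype ovary. Col6a2 differed by -1.68 ± 0.68 (SE, limma adjusted p = 0.093) and was lower without neoplasia 5 (-2.13, limma adjusted p = 0.0158).

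The 3 network chains and the 2 tested transmembrane chains did not pass. Col8a2, a type VIII chain of Descemet's membrane in the eye, had levels of -6.98, -6.36, -6.47, -1.67 and -1.34 in neoplasia 1 to 5, against -0.29, -0.08 and -1.71 in wildtype 1 to 3. Neoplasia 1 to 3 lay far below the wildtype arrays and neoplasia 4 and 5 reached their range (-3.87 ± 1.46, SE, limma adjusted p = 0.0752). Without neoplasia 5 it was lower (-4.68, limma adjusted p = 0.0258). Col8a1 (1.32 ± 0.92, SE) and Col10a1 (0.36 ± 1.00, SE) had mean differences above 0. Col23a1, a membrane-bound collagen, had levels of -6.53, -4.48, -3.97, -3.23 and -4.15 in neoplasia 1 to 5, against -2.22, -1.75 and -3.23 in wildtype 1 to 3. Neoplasia 4 and wildtype 3 met at -3.23, and the chosen probe missed the threshold (-2.07 ± 0.70, SE, limma adjusted p = 0.0543), whereas another Col23a1 probe passed it (-2.63 ± 0.51, SE, limma adjusted p = 0.00823).

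Col26a1, a short collagen-like chain described from developing mouse testis and ovary, was lower in the neoplasias. Its levels were -0.88, -3.23, -6.60, -4.72 and -6.02 in neoplasia 1 to 5, against 1.01, 0.59 and 1.46 in wildtype 1 to 3. The groups did not overlap, neoplasia 1 was the nearest to the wildtype arrays, and the probe was above background on 2 of 5 neoplasia arrays. The difference was -5.31 ± 1.19 (SE), 39.6-fold lower (limma adjusted p = 0.0143), but -3.05 with normexp background correction (limma adjusted p = 0.00164). Within slide row 2 it was -7.03. The call was lost with slide row as a block (limma adjusted p = 0.0699), without wildtype 1 (limma adjusted p = 0.0569) and without wildtype 3 (limma adjusted p = 0.052). Markers of granulosa cells fell for 6 of 8 genes and of theca and luteal cells for 4 of 5, against 13.5% of all features. The median difference of the granulosa markers was -6.15. Their summed level was 42.7 to 72.4 in the neoplasias and 153 to 214 in wildtype ovary. Without Foxl2, left out after its values were seen, it was 0.23 to 35.7 in the neoplasias and 124 to 182 in wildtype ovary. Fshr, Amh and Cyp19a1 were above background on no neoplasia array. The part of these ovarian cells in the levels of Col26a1, Col6a4, Col6a5 and Col9a2 was not tested.

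Whether chains that assemble together changed equally was asked with the gap between the chains on each array, in which the scaling of the array cancels. None of the 10 pairs passed after adjustment over the pairs (adjusted p 0.0893 to 0.821), and the smallest p that 56 splits allow is 0.0179. Of the 10, 4 had an unadjusted p under 0.05. The gap Col1a1 minus Col1a2 was 2.58, -1.07, -0.48, -0.48 and -1.13 in neoplasia 1 to 5, against -2.02, -1.69 and -1.88 in wildtype 1 to 3. All 5 neoplasias lay above all wildtype arrays, and neoplasia 1 lay far above the rest (change of 1.74, exact permutation p = 0.107, adjusted p = 0.179). For Col1a1 minus Col3a1 the gap averaged 1.94 ± 1.62 (SD, n = 5) in the neoplasias and -0.34 ± 0.13 (SD, n = 3) in wildtype ovary (exact permutation p = 0.0357, adjusted p = 0.0893). For Col6a1 minus Col6a2 it averaged 4.62 ± 0.82 (SD, n = 5) in the neoplasias and 2.91 ± 0.19 (SD, n = 3) in wildtype ovary (exact permutation p = 0.0357, adjusted p = 0.0893).

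The gaps Col8a1 minus Col8a2 and Col9a1 minus Col9a2 changed by 5.19 and 6.23 (exact permutation p = 0.0179, adjusted p = 0.0893 for each), and both rest in part on signals below background. Col5a1 minus Col5a2 averaged 2.76 ± 0.48 (SD, n = 5) in the neoplasias and 2.88 ± 0.29 (SD, n = 3) in wildtype ovary (exact permutation p = 0.821, adjusted p = 0.821). Col4a3 minus Col4a4 changed by 1.00 (exact permutation p = 0.0536, adjusted p = 0.107) and Col11a1 minus Col11a2 by -1.44 (exact permutation p = 0.464, adjusted p = 0.58).

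**Figure D4:**
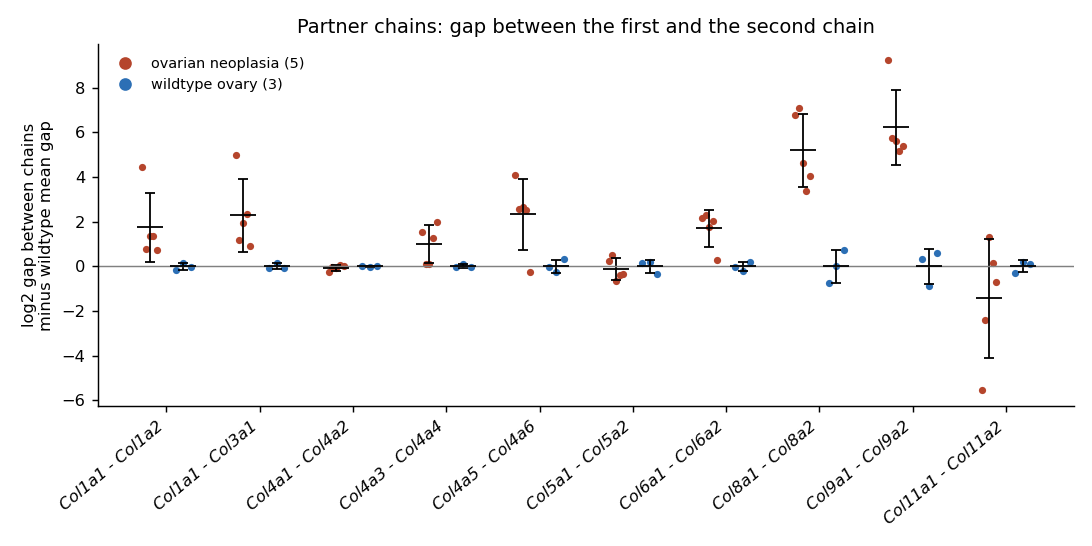
Gap between the log2 levels of 2 partner chains on each array, minus the wildtype mean gap (y axis), for 10 pairs; red points are the 5 neoplasias, blue points the 3 wildtype ovaries, black marks the mean with SD. Col4a1 - Col4a2 stays near 0 on every array, while all 5 neoplasias lie above the wildtype arrays for Col1a1 - Col1a2, Col1a1 - Col3a1, Col6a1 - Col6a2, Col8a1 - Col8a2 and Col9a1 - Col9a2.

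Genes that modify, fold, export, trim and cross-link collagen were measured in the same fit. Of 32 listed, 30 were tested, 8 were higher in the neoplasias, 2 were lower and 20 did not pass, with a median difference of 0.58 against 0.13 over all features. The total of 10 is close to the 30.3% of all features called (16.8% higher, 13.5% lower). The largest rise among the 30 was in P4ha2, a catalytic subunit of prolyl 4-hydroxylase, whose products stabilise the helix. It had levels of 4.66, 2.99, 4.04, 5.16 and 4.83 in neoplasia 1 to 5, against 0.68, 0.74 and 0.50 in wildtype 1 to 3. Every neoplasia lay above every wildtype array, by 3.70 ± 0.46 on average (SE, 13.0-fold higher, limma adjusted p = 0.00128). The related P4ha1 had levels of 1.82, 1.36, 1.36, 1.19 and 1.84 in neoplasia 1 to 5, against 0.17, 0.09 and -0.07 in wildtype 1 to 3 (1.45 ± 0.22, SE). P4hb, the shared beta subunit and a disulfide isomerase, had levels of 5.75, 5.23, 5.94, 5.90 and 5.58 in neoplasia 1 to 5, against 4.05, 4.31 and 4.52 in wildtype 1 to 3 (1.39 ± 0.23, SE). P4ha3 did not pass (0.16 ± 0.26, SE, limma adjusted p = 0.65). With spike-in scaling P4ha2 remained higher, while the calls of P4ha1 (0.86, limma adjusted p = 0.33) and P4hb (0.79, limma adjusted p = 0.36) were lost. The P4hb call was also lost with slide row as a block (1.29, limma adjusted p = 0.0838), and its difference was 0.77 with quantile normalization.

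Loxl4, an enzyme that cross-links collagen, had levels of -2.12, -0.80, -1.87, -0.58 and -2.37 in neoplasia 1 to 5, against -5.28, -3.66 and -4.88 in wildtype 1 to 3. It was above background on 5 of 5 neoplasia arrays and 1 of 3 wildtype arrays, and was higher by 3.06 ± 0.53 (SE, limma adjusted p = 0.00526). The Loxl4 difference within slide row 2 was 2.24 and did not pass (limma adjusted p = 0.101, and 0.152 with slide row as a block). It was 1.5 with normexp background correction. Its relative Lox had levels of 0.49, -3.56, 0.04, -0.15 and 2.06 in neoplasia 1 to 5, against -3.19, -2.20 and -2.99 in wildtype 1 to 3. Neoplasia 2 lay below the wildtype arrays and the other neoplasias above, and Lox did not pass (2.57 ± 1.07, SE, limma adjusted p = 0.099). It was higher without neoplasia 2 (3.41, limma adjusted p = 0.00627). Pcolce (1.5 ± 0.32, SE), which speeds the trimming of procollagen, Plod3 (1.00 ± 0.27, SE), a lysyl hydroxylase, and Crtap (1.20 ± 0.35, SE) and Ppib (0.97 ± 0.30, SE), partners in prolyl 3-hydroxylation, were also higher.

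P3h2, a prolyl 3-hydroxylase that acts on basement membrane collagen, was lower. Its levels were -5.20, -3.78, -4.17, -4.66 and -1.90 in neoplasia 1 to 5, against -1.56, -1.34 and -1.69 in wildtype 1 to 3 (-2.41 ± 0.66, SE). Neoplasia 5 lay just under the wildtype arrays, and within slide row 2 the difference was -0.37 (limma adjusted p = 0.293). With normexp background correction it was -0.88. Colgalt2, which adds galactose to hydroxylysine, had levels of -5.19, -3.86, -2.42, -3.72 and -2.55 in neoplasia 1 to 5, against -1.67, -1.5 and -0.29 in wildtype 1 to 3 (-2.39 ± 0.65, SE). The Colgalt2 difference was -1.40 within slide row 2 (limma adjusted p = 0.194) and -1.25 with normexp background correction. Both calls were lost without any 1 wildtype array, at limma adjusted p of 0.0715 to 0.0938 for P3h2 and 0.067 to 0.0965 for Colgalt2, and without neoplasia 4 (0.0599 for P3h2, 0.0571 for Colgalt2). The P3h2 call was also lost without neoplasia 3 (limma adjusted p = 0.0545). Serpinh1, the collagen chaperone HSP47, had levels of 3.82, 3.83, 4.39, 4.0 and 4.83 in neoplasia 1 to 5, against 4.45, 4.43 and 4.63 in wildtype 1 to 3. It did not pass (-0.33 ± 0.27, SE, limma adjusted p = 0.368), and only neoplasia 5 lay above the wildtype arrays. With spike-in scaling 2 of the assembly genes were higher and 4 were lower.

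**Figure D5:**
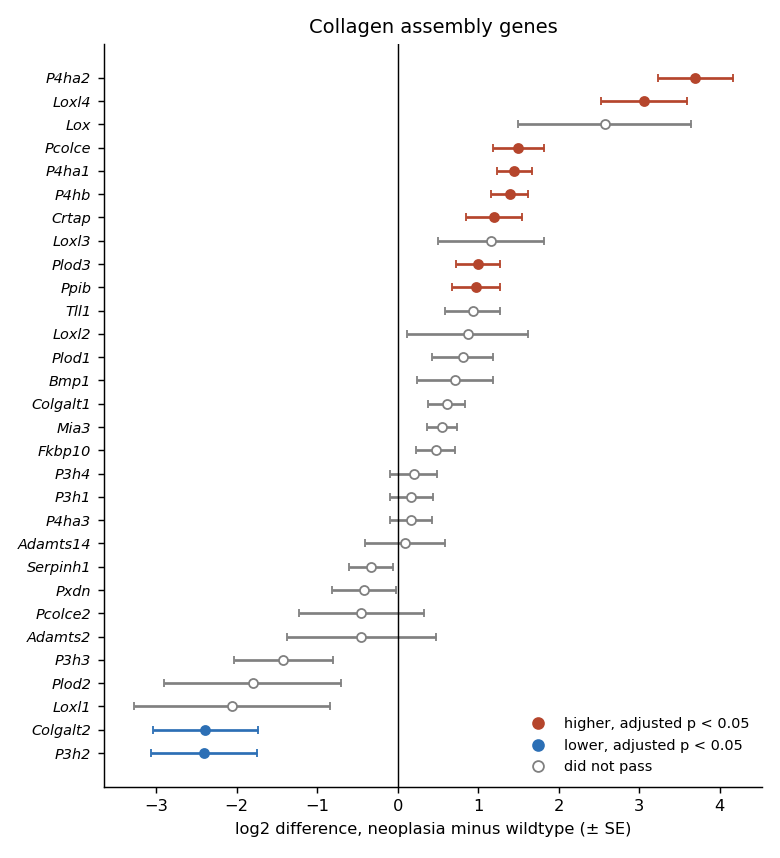
Difference in log2 level, neoplasia minus wildtype, with its standard error (x axis) for the 30 tested collagen assembly genes; filled red points were higher, filled blue points lower and open points did not pass (5 neoplasias, 3 wildtype ovaries). P4ha2 at 3.70 and Loxl4 at 3.06 stand at the top, and P3h2 at -2.41 and Colgalt2 at -2.39 at the bottom.

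Of 8 tested collagen receptors, 1 was higher and none was lower, against 16.8% higher and 13.5% lower over all features. The 1 was Lair1, an inhibitory receptor of immune cells. It had levels of 0.04, 0.99, 0.04, -0.15 and 0.35 in neoplasia 1 to 5, against -1.25, -1.48 and -1.59 in wildtype 1 to 3, with no overlap (1.69 ± 0.28, SE, limma adjusted p = 0.00445). The Lair1 call was lost with spike-in scaling (1.1, limma adjusted p = 0.18) and with slide row as a block (1.79, limma adjusted p = 0.0654). Macrophage markers were higher for 5 of 5 genes, against 16.8% of all features. Their summed level was 59.0 to 122 in the neoplasias and 24.2 to 28.3 in wildtype ovary. The part of macrophages in the Lair1 level was not tested. Of 7 tested fibril-binding proteoglycans, Ogn, which encodes mimecan, was lower and none was higher, against 13.5% lower and 16.8% higher over all features. Ogn had levels of -6.40, -1.21, -2.10, -0.87 and 1.49 in neoplasia 1 to 5, against 4.42, 4.40 and 4.40 in wildtype 1 to 3 (-6.22 ± 1.47, SE, limma adjusted p = 0.0173). All neoplasias lay below all wildtype arrays, and the call was lost without any 1 wildtype array (limma adjusted p 0.0544 to 0.0655). The Ogn difference within slide row 2 was -2.92, and its call was lost with slide row as a block (limma adjusted p = 0.401). Dcn, the decorin that coats type I fibrils, had levels of -1.17, 2.75, 1.87, 3.28 and 7.11 in neoplasia 1 to 5, against 6.95, 7.06 and 6.12 in wildtype 1 to 3. Neoplasia 1 to 4 lay below every wildtype array and neoplasia 5 above, as for Col1a2 and Col3a1, and Dcn did not pass (-3.94 ± 1.52, SE, limma adjusted p = 0.0809). Without neoplasia 5 it was lower (-5.03, limma adjusted p = 0.00919).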

How the data were processed

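RNA of 5 ovarian neoplasias and 3 wildtype ovaries was labelled with Cy3 and hybridised to Agilent mouse arrays. The deposited scanner files hold spot intensity, background-subtracted and not normalized between arrays. The software was Agilent Feature Extraction (version 11.0.1.1), per the file headers. A value table was also deposited, with log2 values; all 37932 rows matched log2 of the mean intensity over spots of the same accession within 0.001, so it is not scaled or centred. Its medians were 4.80, 5.37, 5.21, 4.99 and 5.33 in neoplasia 1 to 5 and 6.03, 6.07 and 5.75 in wildtype 1 to 3. Partek is named, without its role, per the submitters' processing notes.

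Processed intensity was put on the log2 scale and the array's 75th percentile was subtracted. Control and outlier spots were left out, no spot was saturated, and spots of a probe were averaged. Accessions named 26582 of 55681 probes through RefSeq (GRCm38.p6), and the probe with the highest mean stood for a gene. The part of a transcript that a probe covers was not used here. The fit used lmFit and eBayes of limma 3.58.1 under R 4.3.3 (6 residual degrees of freedom, two-sided), with adjustment by Benjamini-Hochberg over all tested features. Gaps between chains were compared with an exact permutation test, two-sided. The limma fit was tested on simulated data. For Col6a5, Cnmd and Prl8a2, above background on no array of 1 group, a bound is given. It was taken from the higher of the gene's own value and the lowest signal above background on each array. The number of arrays limits the precision. Values by array are given for Col1a1, Col1a2, Col3a1, Col4a1 and Col4a2, for up to 3 chains of each class that passed, or the 1 with the largest difference where none did, for up to 4 genes of each other list that passed, and for Serpinh1, P4ha1, P4hb, Lox and Dcn. Col5a3 was added after its values were seen. The members, gene lists and tests were chosen with earlier results of these data known. Alternatives were normexp (offset 50, on median intensity), quantile, spike-in and no scaling, filters, probe means, variance models, replicate and slide row blocks, and leaving out each array. Testing each probe of a chain on its own, and marker sums without the genes that carry them, were added after the data were seen.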

Additional observations from a re-analysis of the deposited data

Results flagged for a closer look

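Of 57 values set against Dixon's critical value of 0.71 for 5 samples, 5 had a neoplasia far from the other 4, and chance gives about 1 in 20. Col4a6 stood at 0.79 in neoplasia 5, against -2.46 to -1.56 in the other neoplasias. Col5a3 stood at 3.01 in neoplasia 5, against 0.25 to 1.05 in the other neoplasias. The gap Col1a1 minus Col1a2 was 2.58 in neoplasia 1 and -1.13 to -0.48 in the others, and the gap Col9a1 minus Col9a2 was 3.49 in neoplasia 1 and -0.55 to 0.02 in the others. The gap Col6a1 minus Col6a2 was 3.19 in neoplasia 5 and 4.67 to 5.21 in the others.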

How the results depend on the processing

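The counts of higher and lower chains (4 and 6) became 0 and 13 with spike-in scaling, against 2.93% and 15.9% of all features. Counts in slide row 2 alone rest on 1 neoplasia, which has no spread of its own. Lower chains numbered 2 with the filter for signal above background on every array, against 9.93% of all features. That filter tested fewer chains and left out Col9a2, Col6a4, Col6a5 and Col26a1. Lower chains numbered 13 with the replicate block (10.6% of all features), 3 with slide row as a block (3.20%) and 2 at a threshold of 0.01. With 1 array left out they numbered 3 (without wildtype 1, 6.08% of all features) to 14 (without neoplasia 5, 17.1%). Higher assembly genes (8) numbered 5 with quantile normalization (15.5% of all features higher), 2 with spike-in scaling (2.93%) and 5 with the replicate block (7.97%). They numbered 3 with the row block (2.91%), 4 at 0.01 and 4 to 10 with 1 array left out. Lower assembly genes (2) numbered 4 with spike-in scaling and the replicate block, 0 with the every-array filter, the row block, row 2 alone and 0.01, and 0 to 4 with 1 array left out. Higher receptors and proteoglycans (1) numbered 0 with spike-in scaling, 2 with probe means, 7 in row 2 alone and up to 3 with 1 array left out. Lower ones (1) numbered 2 with normexp, 6 with spike-in scaling and the replicate block, 0 with the every-array filter, the row block and 0.01, and 0 to 7 with 1 array left out. The median chain difference (-0.87) was -0.08 with normexp, -0.22 with the every-array filter and 0.22 with the row block or in row 2 alone. With the row block or in row 2 alone the signs turned for Col1a1 (2.07), Col1a2 (1.34), Col3a1 (1.16), Serpinh1 (0.32) and Dcn (0.39), and without neoplasia 3 for Col1a1 (-1.09 to 0.12 with 1 array left out) and the gap Col5a1 minus Col5a2 (-0.30 to 0.01). None of these had passed, and the causes were not tested. Both block fits use fewer arrays for the difference: numbers 4 and 5 have no wildtype partner, and row 1 holds no wildtype array. With the replicate block Col1a2 (-3.93), Col3a1 (-4.44), Col5a1 (-2.14) and Col5a2 (-2.17) were among the lower chains (adjusted p 0.00599 to 0.0113) and Col26a1 was not (-4.59, adjusted p = 0.0664). Same-numbered arrays deviated from their group means with correlations of -0.054, -0.031 and -0.001, so the numbers do not pair them. The median of all features was 0.13, 0.21 with normexp, 0.03 with quantile normalization, -0.46 with spike-in scaling and -0.35 in the deposited values. The share of calls that were higher was 55.4%, 66.3%, 50.4%, 15.6% and 20.2% in the same order, 67.6% with the every-array filter and 42.9% with the replicate block.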
